A study of Homo sapiens with 14 samples.

Results

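The sgRNAs described here carry an ID with the letters GAC and target m6A sites for which the library holds only 1 or 2 sgRNAs. They were chosen by their IDs alone: the ID starts with 2bc, contains GAC, and shares its site ID (the ID without its final dot and number) with at most 1 other sgRNA. This rule took 4720 of the 9077 sgRNAs in the deposited tables (52.0%), or 84.3% of the 5599 m6A sgRNAs with GAC in their ID. Of these, 3080 were alone at their site ID and 1640 shared 820 site IDs in pairs, which gave 3900 site IDs in all.

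The study put the same library through 2 pooled base editor screens. In the proliferation screen, A549 cells, an established line from a human lung carcinoma, stably carried the cytosine base editor FNLS-BE3, and sgRNAs were sequenced at day 0 (1 library) and at days 10, 20 and 30 of culture (2 libraries each). In the differentiation screen, H1 human embryonic stem cells stably carried FNLS-ABE7.10(AW), an adenine base editor, and were driven toward definitive endoderm for 3 days. Cells with the lowest and the highest staining for CXCR4, a chemokine receptor used as a surface marker of definitive endoderm, were then sorted as the CXCR4- and CXCR4+ populations of 3 independent screens. In both screens the editor came from a lentivirus with puromycin selection and the sgRNAs from a second lentivirus at a low multiplicity of infection with blasticidin selection, so day 0 cells and both sorted populations carried editor and sgRNAs too. Every A549 comparison with day 0 shares that lone library. The study describes the A549 replicates as biologically independent, and the labels and methods do not say at which step they were separated.

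N6-methyladenosine (m6A) is the most common internal modification of mRNA. It is written by the METTL3-METTL14 complex on the adenosine of a DRACH motif, in which A is preceded by a purine and followed by C, and GAC is the most favored core. An adenine base editor turns A into G (A-to-G) inside a short window of the sgRNA's target and can so remove the methylated base, whereas a cytosine base editor turns C into T (C-to-T) and leaves the adenosine itself in place. The final number of an ID ran from 4 to 8, and its meaning is not stated in the sources used here. No sequence, gene or position is paired with these IDs in the tables, so sgRNAs are named by ID.

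The libraries held 14925937 to 16457222 reads in A549 and 8076271 to 11341078 in H1, and the GAC sgRNAs took 51.6 to 51.9% and 51.6 to 52.0% of them. At day 0 these sgRNAs had a median normalized count (read count scaled by 1 factor per library) of 1608, with a range of 232 to 7144. Over the same sgRNAs, libraries of 1 group differed by a chi-square per sgRNA of 24.1 to 91.1, where counting noise alone gives about 1, so none was treated as a duplicate. Amplified reads with no molecular identifiers do not stand for separate molecules. The exact 95% binomial intervals given below were computed from the numbers of sgRNAs called and tested. They treat sgRNAs as independent and leave out the spread between libraries or screens, so their overlap is only a description.

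In A549 cells, the normalized counts of most GAC sgRNAs changed little through 30 days of culture. The log2 fold change (LFC) over day 0 was computed per library after adding a pseudocount of 1. At day 30 the median LFC was 0.01 in library 1 and 0.00 in library 2, and 78.4% of the sgRNAs had a mean LFC within 0.5 of 0. The counts are scaled per library and these sgRNAs took 51.6 to 51.9% of the reads. A median near 0 is therefore largely set by the scaling and does not show that abundance was kept. Set against the non-targeting sgRNAs of the same libraries, which match no site in the genome, the median differed by -0.02 ± 0.01 at day 10, -0.02 ± 0.02 at day 20 and -0.03 ± 0.01 at day 30 (SD, n = 2 libraries). These differences were small beside the spread among sgRNAs, whose mean LFC at day 30 had an SD of 0.42 for the GAC sgRNAs and 0.41 for the 1000 non-targeting sgRNAs. The spread of the GAC sgRNAs grew from an SD of 0.23 at day 10 to 0.27 at day 20 and 0.42 at day 30.

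More GAC sgRNAs passed the size threshold of the study's methods (LFC above 1 or below -1, here for the mean of both libraries) as culture went on. At day 10 only 2bc36062_GAC_4.5 was below -1 (0.0661% of all sgRNAs were) and 0 were above 1 (0.011% of all). At day 20 there were 9 below -1 (0.165% of all) and 0 above 1 (0.0441% of all), and 3 were below -1 in each of the day 20 libraries (0.0881% of all). Those 3 were 2bc36062_GAC_4.5, 2bc19812_GAC_3.5 and 2bc26798_GAC_1.5, with mean day 20 LFCs of -1.16, -1.26 and -1.04. At day 30 there were 70 below -1, or 1.48% (exact interval 1.16 to 1.87%), beside 1.52% of all sgRNAs and 1.0% of the non-targeting sgRNAs (0.481 to 1.83%). On the other side, 32 were above 1 at day 30, or 0.678% (0.464 to 0.956%), beside 0.705% of all sgRNAs and 1.0% of the non-targeting ones. Both shares lay close to those of the whole library. Requiring an LFC beyond 1 in each of the 2 day 30 libraries left 30 depleted sgRNAs (0.606% of all passed) and 13 enriched ones (0.231% of all passed).

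With limma over all 7 libraries and Benjamini-Hochberg adjustment over all sgRNAs, 0 GAC sgRNAs passed an adjusted p of 0.05 at day 10, 20 or 30 in either direction. Of all sgRNAs, 0.011% passed as higher at day 30 and 0% as lower. At an unadjusted limma p under 0.05, 282 GAC sgRNAs were lower at day 30 (5.65% of all sgRNAs were) and 339 were higher (7.38% of all). The numbers were 16 lower and 50 higher at day 10 (0.342% and 1.06% of all), and 44 lower and 90 higher at day 20 (0.881% and 1.91% of all). Once the fit had a term for the replicate number (a block), it called 23 GAC sgRNAs lower and 71 higher at day 30. These were 0.487% and 1.5% of the GAC sgRNAs, beside 0.485% and 1.45% of all. Of the non-targeting sgRNAs, 3 and 22 were called (0.3% and 2.2%), so the share called higher was larger among them than among the GAC sgRNAs. A linear trend over day called 28 lower and 58 higher (0.593% and 1.23%, beside 0.518% and 1.16% of all). It called 3 and 13 non-targeting ones (0.3% and 1.3%).

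The 70 sgRNAs below -1 at day 30 had moved the same way earlier. Their median LFC was -0.36 in both day 10 libraries, -0.57 and -0.56 in the day 20 libraries, and -1.30 and -1.22 in the day 30 libraries. Of the 70, 63 were negative in both day 10 libraries and 66 in both day 20 libraries. The 32 sgRNAs above 1 had median LFCs of 0.49 in both day 10 libraries, 0.63 in both day 20 libraries, and 1.07 and 1.17 in the day 30 libraries, and 30 and 32 of them were positive in both libraries of day 10 and of day 20. All these values share the day 0 library, so its own error enters each of them. Measured from day 10 to 20 and from day 20 to 30, which share no day 0 value, the LFCs of replicates 1 and 2 correlated at 0.076 and 0.24 over the GAC sgRNAs and at 0.021 and 0.26 over the non-targeting sgRNAs (Pearson r across 4720 and 1000 sgRNAs, which are not independent replicates).

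The most depleted GAC sgRNA was 2bc23548_GAC_2.4. From a normalized count of 621 at day 0 it went to 463 and 475 (day 10), 328 and 286 (day 20) and 117 and 99.7 (day 30). Every later library was below day 0 and each pair of libraries was below that of the preceding day. The mean LFC at day 30 was -2.51 ± 0.16 (SD, n = 2 libraries), with a Benjamini-Hochberg adjusted limma p of 0.232, and of 0.043 with the replicate number as a block. The other sgRNA of its site, 2bc23548_GAC_2.5, went from 1262 at day 0 to 933 and 1069 at day 30, a mean LFC of -0.34 ± 0.14.

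The next was 2bc36062_GAC_4.5, with 439 at day 0, 233 and 182 (day 10), 212 and 181 (day 20) and 94.6 and 124 (day 30). All 6 later libraries were below day 0, and the day 20 libraries lay within or near the range of day 10. Its mean LFC at day 30 was -2.01 ± 0.27 (adjusted limma p 0.297), and at 439 it started from 1 of the lower day 0 counts.

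For 2bc38475.1_GAC_7.8 the counts were 917 at day 0, 700.3 and 425 (day 10), 467 and 391 (day 20) and 238 and 285 (day 30). Both day 30 libraries were below both day 20 libraries, and the mean LFC at day 30 was -1.81 ± 0.18 (adjusted limma p 0.251). Its partner at the site, 2bc38475.1_GAC_7.7, had 1102 at day 0 and 975 and 1829 at day 30, so its day 30 libraries lay on either side of day 0.

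A site with sgRNAs that went apart was 2bc25054_GAC_3. The sgRNA ending in 8 fell from 954 at day 0 to 621 and 601, then 550.3 and 647, then 274 and 269 at days 10, 20 and 30. The sgRNA ending in 7 had 1058 at day 0, 1000.1 and 1402 (day 10), 1333 and 1261 (day 20) and 2099 and 1878 (day 30). At day 30 the libraries of these sgRNAs were all below and all above their day 0 value, with mean LFCs of -1.81 ± 0.02 and 0.91 ± 0.11.

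The remaining sgRNAs among the 10 lowest that were below -1 in both day 30 libraries were 2bc71_GAC_4.4 (mean LFC -1.70 ± 0.40), 2bc7096_GAC_13.7 (-1.61 ± 0.02), 2bc35758_GAC_4.4 (-1.58 ± 0.10), 2bc13324_GAC_5.8 (-1.46 ± 0.23), 2bc14236_GAC_1.7 (-1.46 ± 0.06) and 2bc13501.1_GAC_4.7 (-1.44 ± 0.01). In each of them both day 30 libraries were below both day 20 libraries. The step was steepest in 2bc35758_GAC_4.4, with 1583 at day 0, 1384 and 1390.5 (day 10), 1341 and 1149 (day 20) and 503 and 556 (day 30). Of these 6, the last 3 named have a partner at their site, and the partners had mean day 30 LFCs of -0.68 ± 0.60, 0.25 ± 0.25 and -0.41 ± 0.16, none beyond 1 in size. The adjusted limma p of the 10 ran from 0.232 to 0.297. With the block 8 of them passed, at 0.038 to 0.043, and 2bc36062_GAC_4.5 (0.102) and 2bc38475.1_GAC_7.8 (0.055) did not.

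Single libraries decided some calls. For 2bc19954_GAC_2.5, named because it was the exception in sign, replicate 1 went from 822 at day 0 to 539.5, 284 and 152, while replicate 2 had 842, 937 and 829. The mean LFC of -1.21 ± 1.72 passed the threshold on replicate 1 alone. Among the 70 depleted sgRNAs, 40 were beyond -1 in only 1 day 30 library, and this was the only 1 of them with opposite signs. Among the 32 enriched sgRNAs, 19 were beyond 1 in only 1 library and 0 had opposite signs.

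The most enriched GAC sgRNA was 2bc17950_GAC_3.7, with a normalized count of 599.6 at day 0, 899 and 773 (day 10), 1103 and 920.2 (day 20) and 1753 and 1605 (day 30). Each pair of libraries was above that of the preceding day, and its mean LFC of 1.48 ± 0.09 was also the highest of all 9077 sgRNAs (adjusted limma p 0.232, and 0.038 with the block). Its partner 2bc17950_GAC_3.8 had 1016 at day 0 and 1153 and 1416 at day 30 (0.33 ± 0.21).

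Next came 2bc30861_GAC_1.5 with 679.7 at day 0, 1171 and 1041 (day 10), 1411 and 1287 (day 20) and 1846 and 1438 (day 30), a mean LFC of 1.26 ± 0.25. The other 8 named were 2bc3284_GAC_1.5 (1.25 ± 0.35), 2bc10154_GAC_1.8 (1.23 ± 0.12), 2bc32185_GAC_8.8 (1.18 ± 0.24), 2bc19553_GAC_5.7 (1.15 ± 0.19), 2bc8959_GAC_2.7 (1.14 ± 0.06), 2bc17431_GAC_7.5 (1.11 ± 0.13), 2bc3230_GAC_2.8 (1.11 ± 0.05) and 2bc23022_GAC_8.6 (1.11 ± 0.05). The partners of 2bc30861_GAC_1.5, 2bc10154_GAC_1.8 and 2bc17431_GAC_7.5 had mean day 30 LFCs of -0.53 ± 0.96, -0.15 ± 0.87 and -0.003 ± 0.139. Among the sites of the named enriched sgRNAs, 2bc23022_GAC_8 was the 1 whose other sgRNA came near the threshold. Its sgRNA ending in 6 had 1359 at day 0, 1835 and 2092 (day 20) and 2995 and 2860.0 (day 30), and that ending in 5 had 2144, then 2667 and 2612, then 3862 and 3886 (mean LFC 0.85 ± 0.01). All later libraries of both sgRNAs were above their day 0 value. The adjusted limma p of the 10 named enriched sgRNAs ran from 0.232 to 0.286, and with the block all 10 passed, at 0.026 to 0.045.

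Larger changes went with lower abundance. Split by day 0 count into 4 bins of 1180, the GAC sgRNAs had an SD of the mean day 30 LFC of 0.50, 0.44, 0.38 and 0.32 from the lowest to the highest bin. The lowest bin (day 0 counts of 232 to 1261) held 32 of the 70 depleted and 22 of the 32 enriched sgRNAs, and the highest bin held 7 and 1. The median day 0 count was 1277 for the depleted, 1043 for the enriched and 1615 for the other sgRNAs. The day 0 count is itself part of every LFC, and its part in these results was not tested.

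In H1 cells, the normalized counts of most GAC sgRNAs differed little between the CXCR4+ and CXCR4- populations. The LFC of CXCR4+ over CXCR4- was computed within each screen, and its median over the sgRNAs was 0.00, 0.01 and 0.01 in screens 1, 2 and 3. These medians too are largely set by the scaling, since the GAC sgRNAs took 51.6 to 52.0% of the reads. Relative to the non-targeting sgRNAs of the same screen the median differed by 0.02 ± 0.02 (SD, n = 3 screens). The median LFC over the 3 screens was within 0.5 of 0 for 87.3% of the GAC sgRNAs, and its SD over sgRNAs was 0.34, beside 0.32 for the non-targeting sgRNAs. Screen 2 was the most variable, with an SD over GAC sgRNAs of 0.61 against 0.49 in screen 1 and 0.46 in screen 3.

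The filter of the study's methods, a mean of at least 200 in both populations, left 4704 of the 4720 sgRNAs to be tested. An sgRNA was called enriched with a one-sided limma p under 0.05 and a median LFC beyond 0.58 in size. These calls are not those of the study, which took its p from the MAGeCK test. The study also filtered out sgRNAs predicted to cause missense mutations, which was not done here. By this rule the CXCR4- population was enriched for 80 GAC sgRNAs of 78 site IDs, or 1.70% (exact interval 1.35 to 2.11%), beside 1.74% of all sgRNAs and 2.21% of the non-targeting sgRNAs (1.39 to 3.32%). The CXCR4+ population was enriched for 102, each at a site ID of its own, or 2.17% (1.77 to 2.63%), beside 2.05% of all sgRNAs and 1.30% of the non-targeting ones (0.696 to 2.22%). Both shares lay near the background of the library, and their intervals overlapped those of the non-targeting sgRNAs. Their median LFC was -0.72 (lowest -1.54) in the CXCR4- and 0.75 (highest 1.95) in the CXCR4+ direction.

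After Benjamini-Hochberg adjustment of the limma p over all sgRNAs tested, 0 GAC sgRNAs passed 0.05 (0% of all). At an unadjusted two-sided p under 0.05, 71 were higher in the CXCR4- and 104 in the CXCR4+ population (1.66% and 2.1% of all). With a median LFC beyond 1 in size as the stricter threshold, 12 GAC sgRNAs remained in each direction (0.265% of all in each), beside 3 non-targeting sgRNAs in the CXCR4- and 0 in the CXCR4+ direction, which allows a share of up to 0.369%.

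The screens rarely gave the same sgRNAs. The Pearson r of the LFCs across 4704 GAC sgRNAs, given as a description, was 0.026 for screens 1 and 2, -0.020 for 1 and 3, and 0.010 for 2 and 3. The LFC was above 0 in each screen for 590 sgRNAs (12.3% of all were) and below 0 in each for 571 (12.6% of all). All CXCR4+ libraries were above all CXCR4- libraries for 227 (4.83%, beside 4.4% of all) and below them for 201 (4.27%, beside 4.48% of all). An LFC beyond 0.58 in each screen was found for 11 toward CXCR4+ (0.21% of all) and 9 toward CXCR4- (0.232% of all). Of the 80 and 102 called sgRNAs, 60 and 75 had the same sign in each screen, and 8 and 9 were beyond 0.58 in each. The call itself requires a median LFC beyond 0.58, so at least 2 screens share the sign of every called sgRNA. These counts were not made for the called sgRNAs outside the GAC group, so they describe the calls only.

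The smallest p toward CXCR4- with the same sign in all screens belonged to 2bc25994_GAC_3.6. Its normalized counts in screens 1, 2 and 3 were 679, 1365 and 754 in the CXCR4- population and 480.1, 366 and 259 in the CXCR4+ population. The populations did not overlap, and the median LFC was -1.54 with an SD of 0.73 over the screens. The other sgRNA of this site, 2bc25994_GAC_3.5, had 722, 1349 and 1034 in the CXCR4- and 721, 707 and 567 in the CXCR4+ population. It was called too, with a median LFC of -0.87 (SD 0.52), although screen 1 showed no difference.

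The site 2bc25994_GAC_3 was 1 of only 2 pairs in which both sgRNAs were called in the same direction. The other was 2bc35400_GAC_5. Its sgRNA ending in 5 had 724, 584 and 695 in the CXCR4- and 415, 401 and 367 in the CXCR4+ population, which did not overlap (median LFC -0.80, SD 0.19). The sgRNA ending in 6 had 599, 556 and 444 against 385, 146 and 434, also without overlap, but its LFCs in the screens ran from -1.92 to -0.03 (median -0.64, SD 0.96). The pair at 2bc25994_GAC_3 lost 1 of its calls without screen 2 or 3, and that at 2bc35400_GAC_5 lost 1 or both when any of the screens was left out.

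The second smallest p toward CXCR4- was that of 2bc794_GAC_4.7, with 1207, 1252 and 1207 in the CXCR4- and 732, 519 and 718 in the CXCR4+ population. The populations were far apart in every screen (median LFC -0.75, SD 0.31). In 2bc10509.1_GAC_3.8, 1021, 817 and 633 stood against 228, 363 and 464, again without overlap but with LFCs from -2.16 to -0.45. Its partner 2bc10509.1_GAC_3.7 had 797, 784 and 916 against 1078, 647 and 773, populations that overlapped.

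The other sgRNAs of this group were 2bc17745_GAC_2.8 (median LFC -1.43, SD 0.93), 2bc14385_GAC_2.6 (-0.77, SD 0.21), 2bc14577_GAC_6.8 (-0.63, SD 0.38), 2bc26322.1_GAC_3.6 (-0.80, SD 0.22), 2bc28870_GAC_9.4 (-0.70, SD 0.52), 2bc15896_GAC_4.8 (-0.84, SD 0.45) and 2bc22900_GAC_9.5 (-0.73, SD 0.24). In 2bc17745_GAC_2.8 the third screen hardly took part, with 1020.4 in the CXCR4- and 989 in the CXCR4+ population. Only 2bc22900_GAC_9.5 of these was beyond 0.58 in each screen, with 1359, 1269 and 1112 against 820.2, 833 and 527. The partners of 2bc26322.1_GAC_3.6, 2bc28870_GAC_9.4 and 2bc15896_GAC_4.8 had median LFCs of -0.25, -0.21 and 0.06. Without 1 screen the call was lost for 2bc10509.1_GAC_3.8 and 2bc28870_GAC_9.4 (screen 1) and 2bc14577_GAC_6.8 (screen 2).

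Toward CXCR4+, the smallest p with the same sign in all screens was that of 2bc12044.1_GAC_4.7. It had 709, 1227 and 1524 in the CXCR4- and 1926, 1909.6 and 2101 in the CXCR4+ population. The populations did not overlap, and the difference was widest in screen 1 (LFCs of 1.44, 0.64 and 0.46). The next, 2bc1788_GAC_5.5, had 264, 471 and 1089 against 1251, 1237 and 1117, so it was high in all CXCR4+ libraries while its CXCR4- value in screen 3 was near them (median LFC 1.39, SD 1.11). Its partner 2bc1788_GAC_5.4 had 1188, 1725 and 1329.8 against 992, 1353 and 644, lower in CXCR4+ in each screen (median LFC -0.35, SD 0.43).

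A more even change was seen for 2bc25945_GAC_10.7, with 502, 439.7 and 433 in the CXCR4- and 817, 959.7 and 954 in the CXCR4+ population. The populations were well apart, with a median LFC of 1.12 and an SD of 0.25. Its partner 2bc25945_GAC_10.8 had 755, 191 and 664 against 745, 697 and 679.5, a difference in screen 2 only. For 2bc8972_GAC_1.7 the counts were 452, 427 and 359.7 against 714, 819.5 and 913, all CXCR4+ libraries above all CXCR4- ones (median LFC 0.94, SD 0.34).

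The remaining 6 were 2bc19617_GAC_2.4 (median LFC 0.98, SD 0.43), 2bc19204_GAC_1.8 (0.63, SD 0.84), 2bc30845_GAC_2.8 (0.92, SD 0.21), 2bc13535_GAC_3.6 (0.92, SD 1.02), 2bc39621_GAC_3.6 (0.87, SD 0.22) and 2bc5120_GAC_3.6 (0.60, SD 0.58). For 2bc13535_GAC_3.6 the CXCR4- library of screen 2 stood low, at 146 beside 597 and 502 in the other screens, and for 2bc19204_GAC_1.8 at 422 beside 995 and 1112. Their partners had median LFCs of 0.16 and -0.12. Without 1 screen the call was lost for 2bc12044.1_GAC_4.7 (screen 1), 2bc19204_GAC_1.8 and 2bc5120_GAC_3.6 (screen 2). The highest median LFC among the called sgRNAs, 1.95 (SD 1.99), belonged to 2bc32159_GAC_3.8, picked out for its size, whose counts of 114, 72.9 and 488 in CXCR4- and 445, 529 and 251 in CXCR4+ overlapped and turned the other way in screen 3.

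The LFCs were again more spread among sgRNAs with fewer reads. In 4 bins of 1176 by level in H1, from lowest to highest, median LFCs had an SD of 0.43, 0.34, 0.30 and 0.25. In the same order the bins held 25, 25, 22 and 8 of the 80 sgRNAs called toward CXCR4-. They held 35, 40, 17 and 10 of the 102 called toward CXCR4+, so the lowest bin did not stand out as in A549. Of the 4720 GAC sgRNAs, 1 had a value of 0 in any library, 2bc23316_GAC_2.8 in the CXCR4- population of screen 2. Its other sorted libraries had 29.2 to 296, so it did not pass the filter.

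The sgRNAs of a pair shared little of their LFC in either screen. In A549 the mean day 30 LFCs of the sgRNAs of a site correlated at 0.046 over 820 pairs and had the same sign in 51.3% of them. Neither direction had a pair with both sgRNAs beyond 1, while 25 pairs had 1 depleted and 15 had 1 enriched sgRNA. In H1 the correlation of median LFCs was -0.049 over the 816 pairs tested, with the same sign in 47.3%. The count was 2 pairs with both sgRNAs enriched in CXCR4- and 0 with both in CXCR4+, while in 34 and 40 pairs 1 sgRNA was called in that direction. At 1 site, 2bc38300_GAC_2, the calls were opposite. Its sgRNA ending in 6 had 1138, 867 and 846 in CXCR4- against 688, 821 and 503 in CXCR4+, and that ending in 7 had 794, 1011 and 437 against 763, 1534 and 985. The populations overlapped for the sgRNA ending in 7 and did not for that ending in 6, and the median LFCs were 0.60 (SD 0.62) and -0.72 (SD 0.38). Pairs of AAC sgRNAs at sites with 2 sgRNAs correlated at 0.064 in A549 and -0.014 in H1 over 354 and 352 pairs. In H1, 0 AAC pairs had both sgRNAs called in the same direction. In 16 and 14 AAC pairs 1 sgRNA was called toward CXCR4- and CXCR4+.

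The final numbers of the IDs of a pair differed by 1 in 679 pairs and by 3 or 4 in 141. At a difference of 1 the correlation was 0.066 in A549 and -0.058 in H1, and at 3 or 4 it was -0.049 and 0.004. Being 1 of a pair went with somewhat more CXCR4- calls, 2.32% (exact interval 1.65 to 3.17%) against 1.37% (0.988 to 1.85%) for sgRNAs alone at their site. The corresponding shares were 2.44% and 2.02% for CXCR4+, 1.52% and 1.46% for depletion in A549, and 0.915% and 0.552% for enrichment in A549. All of these intervals overlapped between the groups.

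By the final number of the ID, 4, 5, 6, 7 and 8, there were 1035, 914, 897, 988 and 886 GAC sgRNAs. In A549 the median day 30 LFC, averaged over both libraries, was 0.00, 0.01, -0.02, 0.01 and 0.02 in that order, and with the libraries scaled to the same total all 5 were below 0. The share below -1 was 1.64%, 1.42%, 1.23%, 2.13% and 0.903%, and that above 1 was 0.58%, 0.656%, 0.669%, 1.01% and 0.451%. The number 7 had the highest share on both sides and 8 the lowest, with exact intervals for depletion of 1.32 to 3.23% and 0.391 to 1.77% that overlapped.

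In H1 the CXCR4+ calls were level over the final numbers, at 2.14%, 2.30%, 2.12%, 2.24% and 2.04%. The CXCR4- calls were not: 7 of 1030 sgRNAs with the number 4 were called, or 0.680% (exact interval 0.274 to 1.4%), against 2.19%, 1.56%, 1.73% and 2.49% for the numbers 5 to 8. The interval for 4 did not overlap that for 8 (1.57 to 3.75%) and did overlap those for 5, 6 and 7. No test was run over the numbers. Leaving out screen 1, 2 or 3 raised the CXCR4- calls with the number 4 to 23, 21 and 29, beside 22, 32 and 34 with the number 8, so the gap was not seen without screen 1. Without the variance trend in the fit, 15 and 22 were called. Among the AAC sgRNAs at sparsely covered sites the CXCR4- share was 1.51% with the number 4 and 0.864% with the number 8, the opposite order. The median LFC over the screens was 0.00 ± 0.01 with the number 4 and 0.01 ± 0.01 with 8 (SD, n = 3 screens).

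Of the 4704 GAC sgRNAs tested in H1, 6 were past the thresholds of both screens, all of them depleted in A549 at day 30. That is 0.128% (exact interval 0.0468 to 0.277%), beside 0.0774% of all sgRNAs tested and 0 of 997 non-targeting ones, which allows up to 0.369%. None was enriched in A549 and called in H1, beside 0.0111% of all. Across the GAC sgRNAs, the mean LFC in A549 and the median LFC in H1 had a Pearson r of -0.007. The 6 were divided between the H1 populations, with 3 enriched in CXCR4- and 3 in CXCR4+.

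Those described toward CXCR4+ were 2bc12722_GAC_2.6, with LFCs of -1.21 and -1.22 at day 30 and 0.03, 1.39 and 1.25 in H1, and 2bc13324_GAC_5.8, with -1.30 and -1.62 at day 30 and 0.62, 0.12 and 0.85 in H1. Both were above 0 in every screen, with a weak change in 1 of them, and their H1 calls were lost without screen 1 or 3 for 2bc13324_GAC_5.8 and without screen 2 or 3 for 2bc12722_GAC_2.6.

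Toward CXCR4-, 2bc18009_GAC_2.7 had 1495 at day 0 and 585 and 797 at day 30 in A549. In H1 it had 952, 773 and 939 in CXCR4- and 538, 487 and 596 in CXCR4+, populations that did not overlap, with LFCs of -0.82, -0.67 and -0.66. For 2bc14577_GAC_6.8 the counts were 1774 at day 0 and 711 and 605 at day 30, and 1214, 1771 and 1484 against 784, 767 and 1052 in H1. For 2bc14385_GAC_2.6 they were 3319.6 at day 0 and 1858 and 1470.3 at day 30, and 2488, 2682 and 2108 against 1435, 2009.9 and 1232 in H1. All 3 were lower in every CXCR4+ library than in any CXCR4- library. The A549 call of 2bc14385_GAC_2.6 was near the threshold, with LFCs of -0.84 and -1.17, and would not stand on replicate 1 alone. That of 2bc18009_GAC_2.7 would not stand on replicate 2 alone (-0.91), and its H1 call was lost without screen 1.

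At 1 site of the named sgRNAs, 2bc38475.1_GAC_7, different sgRNAs passed in the 2 screens. Sites of this kind were not counted, so no share over all sgRNAs stands beside it. Whereas 2bc38475.1_GAC_7.8 was depleted in A549, its partner 2bc38475.1_GAC_7.7 was enriched in the CXCR4- population of H1. That partner had 648, 666 and 672 in CXCR4- and 254, 331 and 412 in CXCR4+, without overlap (median LFC -1.01, SD 0.32), while 2bc38475.1_GAC_7.8 had 428, 224 and 520.3 against 472, 528 and 477, which overlapped.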

How the data were processed

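Per the methods, Cutadapt removed the constant sequence around each sgRNA, MAGeCK counted the reads, and the counts were scaled by all mapped reads. The deposited values, used here as given, nevertheless did not have the same total in each library. At the same total 81 GAC sgRNAs in place of 70 were below -1 at day 30, and 24 in place of 32 were above 1. CASAVA 1.4 is also named in the submitters' processing notes, and no version of the other tools is stated in the sources used here. The signal deposited by the authors, 1 table for each screen, equals the reads of an sgRNA multiplied by a factor of the library. All values were whole multiples, within 0.05 reads, of a factor estimated here from the values, which gave the depth. Groups and replicate numbers came from the labels. An H1 library from before differentiation was not analysed here.

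LFCs were computed after a pseudocount of 1. A549 sgRNAs were counted by a mean LFC over both libraries of a day beyond 1 in size. Tests used limma 3.58.1 under R 4.3.3 (lmFit, eBayes with a trend) on log2 values, with Benjamini-Hochberg adjustment. They covered all 9077 sgRNAs in A549 and 9044 in H1. The fits were checked on simulated data with a large change in a fixed set of sgRNAs, which does not show their power for smaller changes. H1 calls used a one-sided p under 0.05 and a median LFC beyond 0.58 in size, for sgRNAs whose mean was at least 200 in both populations. Python 3.11.15, pandas 2.3.3, numpy 2.4.6 and scipy 1.17.1 were used elsewhere. The alternatives were other pseudocounts, scalings, filters and thresholds, a replicate block, a linear trend over day, no variance trend, and leaving out each replicate.

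Named were up to 10 sgRNAs per direction in each screen, by size beyond 1 in both day 30 libraries in A549 and by p with the same sign in all screens in H1, their partners, pairs called together and sgRNAs called in both screens. Others were named after their values were seen. The values of 1 sgRNA that this rule names are not reported here. The members, lists and rules were chosen with earlier results of these data known.

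Both sorted H1 libraries of a screen derive from 1 infected culture per the methods. Their deviations from the population means correlated at 0.082, 0.065 and 0.287 within screens 1, 2 and 3. Between screens 1 and 2 the correlations were 0.108 and 0.084, and between screen 3 and the others they were -0.178 to -0.121.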

Additional observations from a re-analysis of the deposited data

How the results depend on the processing

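Leaving out 1 library moved the A549 counts by LFC. The sgRNAs below -1 were 1 as reported and 3 to 4 with a library left out at day 10, 9 and 13 to 18 at day 20 (18 without replicate 1), and 70 and 136 to 143 at day 30, with 136 without day 30 replicate 1 and 143 without replicate 2. Those above 1 were 0 as reported and 1 to 3 with a library left out at day 10, 0 and 4 to 6 at day 20, and 32 and 74 at day 30 without either replicate. Day 30 libraries 1 and 2, each taken alone, had 3.03% and 2.88% of the GAC sgRNAs below -1. The shares were 3.05% and 2.92% of all sgRNAs and 2.5% and 2.2% of the non-targeting ones. Above 1 were 1.57% of the GAC sgRNAs in each library, beside 1.64% and 1.63% of all and 1.7% and 1.8% of the non-targeting ones. With day 0 counts of at least 500 required, 0 were below -1 at day 10. Pairs with both sgRNAs beyond 1 at day 30 were 0 as reported and 1 to 2 without a day 30 library.

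In limma at day 30, 0 sgRNAs were lower and 0 higher at an adjusted p under 0.05. A replicate block (paired fit) gave 23 and 71 (0.487% and 1.5%), beside 0.3% and 2.2% of the non-targeting sgRNAs. A linear trend over day gave 28 and 58 (0.593% and 1.23%), beside 0.3% and 1.3% of the non-targeting sgRNAs. With a library left out the higher count was 0 to 1, with 1 without day 30 replicate 1. In this block day 0 stands alone. The differences between replicates correlated at 0.570, 0.636 and 0.394 between days, and whether a number follows 1 culture across days is not stated in the methods. In H1 the block gave 88 toward CXCR4- and 108 toward CXCR4+, within 1.5 times the 80 and 102 reported, and 0 by adjusted p.

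In H1 a threshold of 1 left 12 in each direction. Leaving out a screen gave 114 to 172 toward CXCR4- and 117 to 203 toward CXCR4+. The change passed 1.5 times without screen 3 in both directions (172 and 203) and without screen 1 toward CXCR4+ (158). Each of these fits had fewer libraries, and the cause of the changes was not tested. A called value could reverse when a library was left out: the day 30 LFC of 2bc19954_GAC_2.5 was 0.01 without day 30 replicate 1. Medians near 0 did change sign: in A549 those of the numbers 4, 5, 7 and 8 became -0.05, -0.04, -0.04 and -0.02 at the same total, and in H1 those of 5 and 6 became 0.01 and 0.02 at the same non-targeting median. The H1 median of the number 6 was also above 0 at the same total. Without day 30 replicate 2 the A549 medians of 5 and 6 changed sign, as did the H1 median of 4 without screen 1, and each stayed within 0.01 of 0. The planned count test on whole reads was not run.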
